A study of Mus musculus with 14 samples.

Results

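Photoreceptors stack light-catching membrane discs in an outer segment, and 9 genes whose products shape or serve these discs were followed in mouse retinal cells after knockdown of Bcor. The genes were chosen by name from what their products are known to do, and the records of each gene were summed. They were Prph2, Rom1, Prom1, Cdhr1, Prcd, Tulp1, Fscn2, Eys and Crb1, 9 names beside 26161 genes in the deposited tables. Of these, 8 had a record, 7 had a count, and all 7 with a count passed the filter on low counts. Of the 9, Tulp1, Fscn2, Eys and Crb1 act beside the disc rather than in it.

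RNA came from 4 libraries of CD1 wild-type mouse retina, 2 control and 2 shBCOR. Both groups had eyes electroporated with plasmid at birth (postnatal day 0, 1 µg/µl) and collected at postnatal day 21. The control plasmid was an empty vector that carries a fluorescent marker, and the shBCOR plasmid expressed a short hairpin against Bcor, which encodes a transcriptional corepressor. In each library, fluorescent cells from several sorts had been pooled to 30000 to 70000 cells, and since nothing says that pools came from separate litters, p-values measure the spread between pools. Electroporation reaches cells still dividing at birth, which mostly become rods and otherwise bipolar cells, Müller glia and late amacrine cells. Below, a pair of values is always that of replicates 1 and 2, with the controls before shBCOR. Rod markers took 20.9 and 21.0% of all control counts against 24.1 and 21.4% with shBCOR. Library totals were 5107174 and 4973402 counts against 3173927 and 4093380. The target itself, Bcor, had 20 and 8 counts against 0 and 13 (log2 fold change −0.63 ± 2.40, SE, n = 2 per group, adjusted p = 0.991, edgeR), so a lower level was not detectable and the shBCOR label was not checked by its target.

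Discs form at the base of the outer segment, where the plasma membrane pushes out in sheets that later close at their rims. Prph2 and Rom1 are related tetraspanins that bend and hold the rim, and loss of Prph2 leaves mouse rods without outer segments. Prom1 and Cdhr1, a cadherin of photoreceptors, lie at the edge of the newest discs, and Prcd is a small protein of the disc membrane. Tulp1 helps to carry proteins from the inner to the outer segment, Fscn2 is the fascin of photoreceptors that bundles actin, Eys is a secreted protein of the photoreceptor surroundings, and Crb1 is a polarity protein at the junctions between photoreceptors and Müller glia. Mutations in many of these genes cause inherited retinal degeneration.

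Otx2 and its relative Crx, the photoreceptor factors that the series pairs with BCOR, are known to bind the letters TAATCC and, less strongly, TAATCT. These letters and the Nrl letters TGCTGAC were searched on both strands in the 250 bases before each annotated start, read from RefSeq (GRCm38.p6). The motifs were chosen as known binding letters of photoreceptor factors. Windows were held for 8 of the 9 genes, 9 windows in all because Prom1 has 2. Only 4 are shown (the 2 windows with a match, from Prph2 and Prcd, and those of Cdhr1 and Crb1, the genes with the largest differences below). Capitals mark TAATCT or its reverse complement, which is AGATTA.
Prph2, chr17:46910228-46910477, plus strand: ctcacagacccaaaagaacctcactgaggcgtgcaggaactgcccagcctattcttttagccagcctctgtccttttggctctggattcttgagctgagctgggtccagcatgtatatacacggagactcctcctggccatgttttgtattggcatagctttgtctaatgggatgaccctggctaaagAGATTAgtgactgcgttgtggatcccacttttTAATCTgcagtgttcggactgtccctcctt
Prcd, chr11:116656858-116657107, plus strand: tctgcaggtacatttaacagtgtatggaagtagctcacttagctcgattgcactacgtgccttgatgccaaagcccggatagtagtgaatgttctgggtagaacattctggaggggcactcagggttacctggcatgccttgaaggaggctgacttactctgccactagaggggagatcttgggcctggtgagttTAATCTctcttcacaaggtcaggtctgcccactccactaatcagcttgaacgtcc
Cdhr1, chr14:37098348-37098597, minus strand: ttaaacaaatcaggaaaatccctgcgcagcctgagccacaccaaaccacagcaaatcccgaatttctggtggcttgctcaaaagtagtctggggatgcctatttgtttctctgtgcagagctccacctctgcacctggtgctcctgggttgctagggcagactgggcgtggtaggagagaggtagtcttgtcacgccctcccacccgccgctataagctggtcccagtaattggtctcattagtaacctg
Crb1, chr1:139377077-139377326, minus strand: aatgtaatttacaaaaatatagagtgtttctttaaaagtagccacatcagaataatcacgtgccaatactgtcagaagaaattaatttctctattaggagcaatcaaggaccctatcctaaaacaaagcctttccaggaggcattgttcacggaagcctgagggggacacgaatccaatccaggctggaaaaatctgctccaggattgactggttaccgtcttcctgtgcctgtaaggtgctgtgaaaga
TAATCC and TGCTGAC were in none of the 9 windows. TAATCT was in 2 of them, at 62 to 57 (reverse strand) and 30 to 25 bases before the start in Prph2 and at 55 to 50 bases in Prcd. Among all 32851 windows in the table, 6.25% held TAATCC, 7.31% held TAATCT and 3.81% held TGCTGAC. A match is a description of letters and does not show binding, and a window without one says nothing of the factor.

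In the shBCOR cells the members ranged from just below to well above their control level. Crb1 and Cdhr1 were 1.50 and 1.40 times their control level, Prph2 was 1.23 times, Fscn2, Rom1 and Tulp1 were 1.20, 1.10 and 1.02 times, and Prcd was 0.92 times. None passed the test over all genes. In such pools a change in the number of cells of a type and in RNA per cell cannot be told apart. Of 7773 genes tested with edgeR, 7 passed at an adjusted p under 0.05 (0.0901%), 3 higher and 4 lower, and 0 of the 7 members were among them. At an unadjusted p under 0.05, 722 genes stood out, and the 3 members among them, Cdhr1, Crb1 and Prph2, were all higher, a class that held 4.19% of the genes tested. The 2 shBCOR values exceeded both control values for the same 3 of 7 members, against 18.7% of the genes tested, and fell short of both for 0 members, against 23.2%. The median log2 fold change of the members was 0.27, with 6 of 7 above 0. Over all genes tested the median was −0.01 with 49.1% above 0, and over the 1146 genes whose mean log2 CPM reached 7, an abundance class that holds all 7 members and was set after the data were seen, it was 0.13 with 68.5% above 0. Of these 1146 genes, 461 had both shBCOR values above both controls and 151 had both below. An unadjusted p under 0.05 was reached by 267 of them, in either direction (edgeR). The shares of members above the controls and at such a p thus need to be read beside this class.

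**Figure D1:**
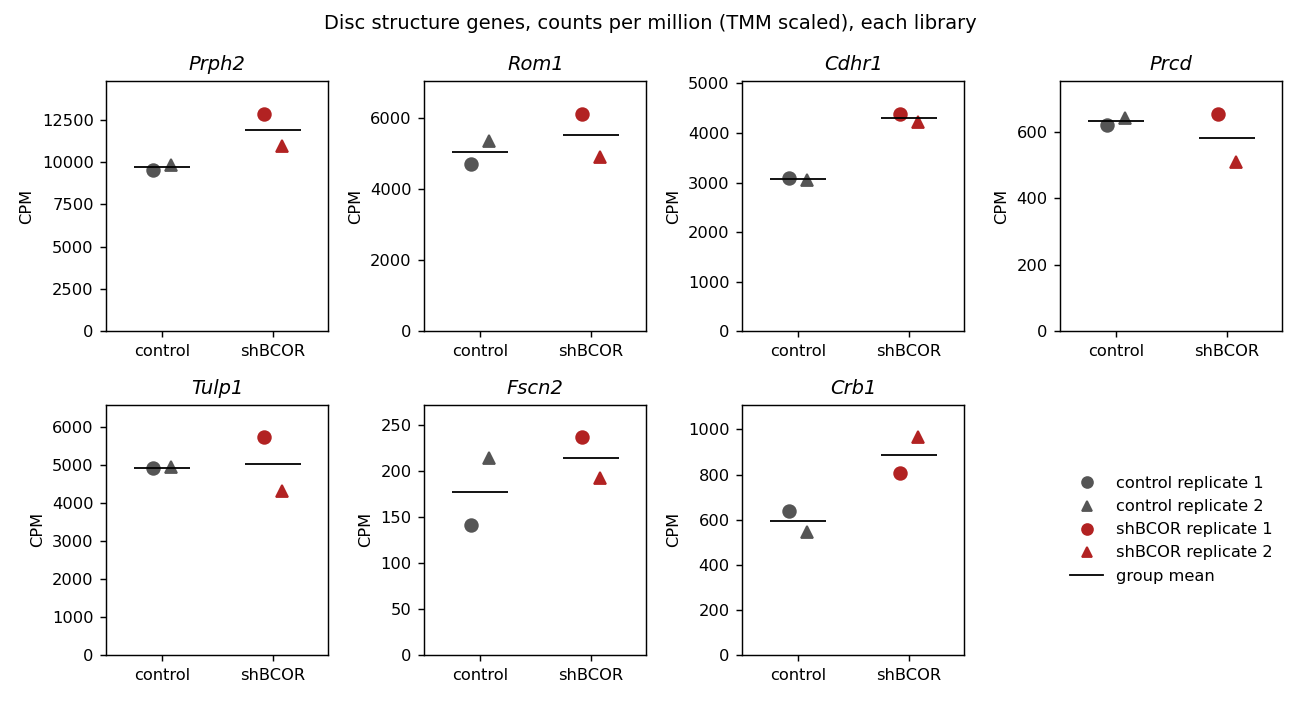
CPM (counts per 1000000) of each disc structure gene with a count, after scaling of the libraries by TMM (vertical axes start at 0 and differ between panels), with a symbol for each library and a bar for each group mean. Both shBCOR libraries sit above both controls for Prph2, Cdhr1 and Crb1, and the groups overlap for the other 4 genes.

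Of the disc rim tetraspanins, Prph2 (NM_008938) had the most counts among the members. It had 51240 and 51701 counts against 37288 and 42737 in the shallower shBCOR libraries. As counts per 1000000 (CPM, with the trimmed mean, or TMM, scaling of edgeR), these were 9527 and 9842 against 12845 and 10945. The shBCOR libraries lay above the controls, but they lay farther apart from each other (SD 1340 CPM) than the controls did (SD 222 CPM). The difference was 0.30 ± 0.09 on the log2 scale (SE, n = 2 per group, 95% interval 0.09 to 0.51, unadjusted p = 0.0117, adjusted p = 0.329, edgeR). Its partner Rom1 (NM_009073) had 4710 and 5367 CPM against 6130 and 4917. Those groups overlapped, with a difference of 0.13 ± 0.12 on the log2 scale (SE, n = 2 per group, interval −0.15 to 0.41, adjusted p = 0.843, edgeR).

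Cdhr1 (NM_130878), the cadherin of new discs, was the member with the smallest p, at rank 33 of 7773 genes. It had 16679 and 16032 counts against 12746 and 16506, or 3101 and 3052 CPM against 4391 and 4227. Libraries of a group differed by far less than the groups did, with SDs of 35.0 CPM in the controls and 116 CPM in the shBCOR libraries. The difference was 0.49 ± 0.08 on the log2 scale (SE, n = 2 per group, interval 0.30 to 0.67, unadjusted p = 0.000374, adjusted p = 0.0852, edgeR), which missed the threshold over all genes.

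Crb1 (NM_133239), the polarity protein, had 639 and 545 CPM against 805 and 965, from 3437 and 2864 counts against 2338 and 3767. It had the largest difference of the members, 0.58 ± 0.14 (SE, n = 2 per group, interval 0.25 to 0.91, adjusted p = 0.220, edgeR). It was highest in shBCOR replicate 2, while the other 6 members with counts were highest in shBCOR replicate 1. Müller glia also express Crb1. Of 14 Müller glia markers 9 were tested, 0 passed, and their median log2 fold change was −0.32. The list had a summed level of 5691 and 5482 CPM against 4093 and 5045, while Car14 and Prdx6 were at 0 in every library. That sum mostly reflects Glul, with 20781 and 19718 counts against 6979 and 12057. The part of Müller glia in the level of Crb1 was not tested.

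For the remaining 3 genes with counts the groups overlapped. Prcd (NM_001163318), of the disc membrane, had 621 and 643 CPM against 655 and 510, so that the controls lay between the shBCOR libraries (log2 fold change −0.12 ± 0.15, SE, n = 2 per group, interval −0.46 to 0.23, adjusted p = 0.915, edgeR). In the RefSeq table the span of Prcd overlaps that of Cygb, a globin gene with 478 and 539 counts against 251 and 170. Whether counting used strand is not given in the sources used here, so reads of the overlap cannot be told apart. Tulp1 (NM_021478), of protein transport, had 4913 and 4945 CPM against 5722 and 4318. Its controls also lay between the shBCOR libraries (0.03 ± 0.13, SE, n = 2 per group, interval −0.27 to 0.33, adjusted p = 0.995, edgeR). Fscn2 (NM_172802), the actin bundler, had the fewest counts, with 764 and 1126 against 687 and 753. These were 142 and 214 CPM against 237 and 193, and the groups overlapped (0.27 ± 0.23, SE, n = 2 per group, interval −0.28 to 0.81, adjusted p = 0.829, edgeR).

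The calls of the members rested on the tool and on single libraries. DESeq2, over 7757 genes with an adjusted p, called Cdhr1, Crb1 and Prph2 higher (adjusted p = 6.03e-09, 0.000285 and 0.00938), in a class that held 2.57% of the genes, and edgeR with no filter on low counts called the same 3 genes, in a class that held 0.702% of its 11246 genes. Over all alternatives the adjusted p ran from 6.03e-09 to 1 for Cdhr1, from 0.000285 to 1 for Crb1 and from 0.000202 to 1 for Prph2. Without shBCOR replicate 1 edgeR called Cdhr1 and Crb1 higher, beside 1.66% of all genes (313 called in both directions). Without shBCOR replicate 2 it called Cdhr1, Prph2 and Rom1 higher, beside 1.29% of all genes (292 in both directions). Without control replicate 1 or without control replicate 2 edgeR called 0 members and 0 of all genes (302 and 295 at an unadjusted p under 0.05).

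**Figure D2:**
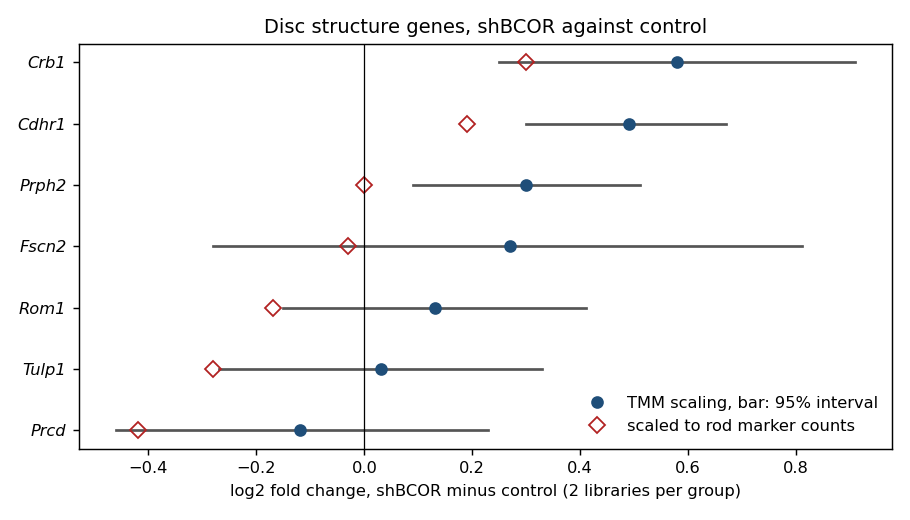
Log2 fold change of shBCOR against control for each disc structure gene tested (horizontal axis; filled points with 95% intervals from edgeR), with the value after scaling to the counts of rod markers (open diamonds). The values run from −0.12 for Prcd to 0.58 for Crb1, and scaling to rod markers moves each of them down, to between −0.42 and 0.30.

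Prom1 and Eys gave no level. All 8 records of Prom1 stood at 0 in all 4 libraries. Among all genes counted here, 63.8% of the 8812 genes with 2 or more records had every record at 0, against 53.6% of the 17349 genes with 1 record. Of the counts, 93.1% went to the genes with 1 record and 6.39% to the others. How reads that fit several records were counted is not stated, so the 0 sets no limit on Prom1 in the cells. Each of the 7 members with counts has a single record. No record matched Eys, which rodents are known to lack in intact form, and it was not analysed here.

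Ratios between members in the same library do not depend on how libraries are scaled. Beside Prph2, the ratios of Prcd, Tulp1 and Rom1 were lower in both shBCOR libraries than in either control, and that of Cdhr1 was higher, though none passed a test. Prcd had 6.52 and 6.53% of the counts of Prph2 against 5.10 and 4.66%. Tulp1 had 51.6 and 50.2% against 44.5 and 39.4%. For both genes the gap between the groups was wider than the spread inside either group. Rom1 had 49.4 and 54.5% against 47.7 and 44.9%, a smaller gap with no overlap. Cdhr1 had 32.6 and 31.0% against 34.2 and 38.6%, and thus lay above. The ratios of Fscn2 (1.49 and 2.18% against 1.84 and 1.76%) and of Crb1 (6.71 and 5.54% against 6.27 and 8.81%) overlapped between the groups.

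Against Prph2, then, 3 of 6 members lay below the controls without overlap and 1 above. Among all genes tested, 37.2% lay below in this ratio and 6.95% above. An edgeR fit with the counts of Prph2 as library size, added after the data were seen, tested these ratios, and none of the 6 passed. Prcd had −0.42 (adjusted p = 0.379), Tulp1 −0.28 (0.419), Rom1 −0.17 (0.647), Fscn2 −0.03 (0.996), Cdhr1 0.20 (0.605) and Crb1 0.30 (0.645). With 2 libraries against 2, an exact permutation test of a single ratio cannot go below p = 0.333. The ratios of Prcd to Cdhr1 were 20.0 and 21.1% against 14.9 and 12.1%, and those of Prcd to Crb1 97.2 and 118% against 81.4 and 52.9%.

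**Figure D3:**
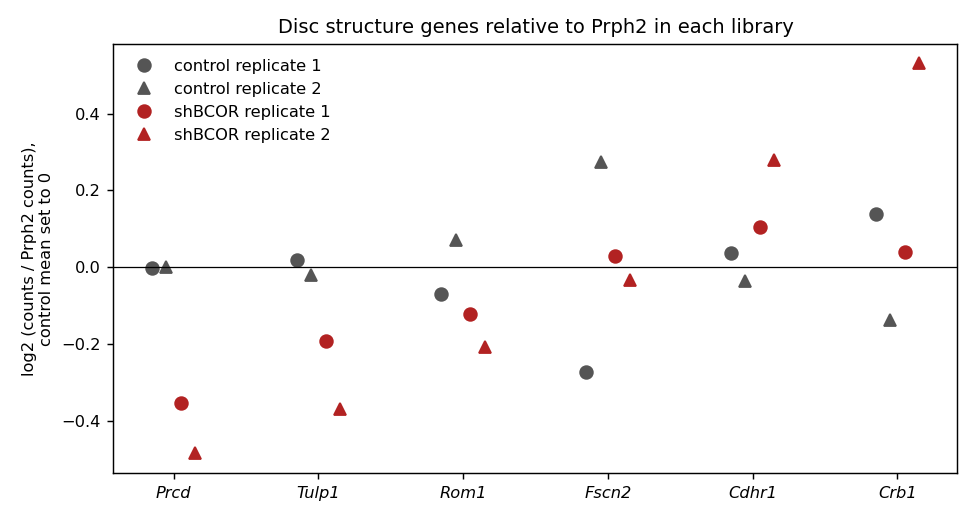
Counts of each disc structure gene over those of Prph2 in the same library, as log2 with the mean of the controls set to 0 (vertical axis), with a symbol for each library. Prcd, Tulp1 and Rom1 lie below 0 in both shBCOR libraries, Cdhr1 lies above in both, and the groups overlap for Fscn2 and Crb1.

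Beside the RNA of rods, the share of Prph2 overlapped between the groups. Its counts were 4.83 and 4.98% of the summed counts of 18 rod markers in the controls against 4.90 and 4.90% with shBCOR, a list in which Gnb1 and Nrl are at 0 in every library. Cdhr1 lay above its controls on this scale (1.57 and 1.55% against 1.67 and 1.89%), and Rom1, Tulp1 and Prcd lay below theirs. Among all genes tested 6.88% lay above without overlap on this scale and 37.6% below. Tulp1 had 2.49 and 2.50% against 2.18 and 1.93%. Of 15 rod markers tested 0 passed, and in CPM 13 lay above the controls without overlap, against 18.7% of all genes tested. Among the 1146 genes whose mean log2 CPM reached 7, 461 did so. The rod markers tested had a median log2 fold change of 0.33, and the list had a summed level of 197113 and 197434 CPM against 262304 and 223437. With the rod marker counts as library size the median of all genes tested moved by −0.29, 0 members passed, and 30 genes passed, 0 of them higher, in place of 7 with 42.9% higher.

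The summed levels of bipolar, amacrine, ganglion and horizontal cell markers were lower in both shBCOR libraries than in either control. That of cone markers was higher, but it mostly reflects Kcnv2. Ganglion, horizontal and cone cells are not among the cell types named above as reached by electroporation at birth. Which cells held the RNAs of these markers was not tested. Bipolar markers, 12 of 16 tested, had a median log2 fold change of −0.58. Of the 12, 8 lay below the controls without overlap, against 23.2% of all genes tested. Their list had a summed level of 2232 and 2096 CPM against 1163 and 1772, with Pcp2 and Gng13 among those at 0. Amacrine markers, 7 of 11 tested, had −2.33, with 117 and 136 CPM against 35.1 and 37.1 and with Tfap2a, Pax6 and Calb2 at 0. Ganglion and horizontal cell markers, 10 of 13 tested, had −1.73, with 1911 and 1857 CPM against 732 and 392 and with Rbpms and Slc17a6 at 0. That sum mostly reflects Nefl, with 7665 and 7322 counts against 1675 and 1114. Cone markers, 10 of 13 tested, had −0.19, of the other sign than their summed level, with 2994 and 2858 CPM against 3869 and 3203 and with Gngt2 and Cnga3 at 0. Kcnv2 had by far the most counts of these, 9597 and 9186 against 7881 and 9494 (0.54, adjusted p = 0.102, edgeR). The summed level of cone markers thus mostly reflects Kcnv2, and which cells its counts came from was not tested. Opn1sw, Gnb3 and Gnat2, the next most abundant, had −0.31, −0.30 and −0.24, and 4 of the 10 tested had positive values. Among these lists 1 gene passed the test, the neurofilament chain Nefm. The part of the cell mixture in the levels of the disc genes was not tested.

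Other genes of the outer segment mostly had positive log2 fold changes, like Cdhr1 and Prph2, 21 of the 22 tested. Over all genes tested 49.1% were positive, and over the 1146 genes whose mean log2 CPM reached 7, 68.5% were. The 22 are not all in that class. Kif17, Rpgr and Fam161a had few counts, with SEs of 2.83, 2.35 and 2.15, so their signs say little. Of the 22, 19 had 200 or more counts over the 4 libraries, with a median of 0.35. Of 30 names on this list, 2 passed as higher (Rp1 and Impg2), 0 passed as lower and 20 did not pass, with a median of 0.38 and 15 above the controls without overlap. The same held for 18.7% of all genes tested and for 461 of those 1146. Abca4, a retinoid flippase that sits at the disc rim, had 0.58 (adjusted p = 0.0593). A further pair of genes known to act where discs form had SEs of 0.13 each, and the difference between their values was not tested. Pcare, which recruits actin to the base of the outer segment, had 5805 and 5538 counts against 3498 and 3824 (0.03, adjusted p = 0.991), as flat as Tulp1. Its partner Wasf3 had 0.32 (adjusted p = 0.499). Cngb1, the subunit of the rod cGMP-gated channel that binds Prph2 and Rom1, had 0.00 (adjusted p = 0.999), while Cnga1, the other subunit, had 0.41 (adjusted p = 0.189).

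Relatives and partners of the members had no call. Of 29 other tetraspanins 11 were tested and 0 passed, with a median of 0.05, and 13 were at 0 in every library. Tspan7, with 2902 and 3204 counts against 1793 and 2239, had 0.05 (adjusted p = 0.982), and Cd81 had 0.27 (0.803). Of the relatives of Tulp1, Fscn2, Prom1 and Cdhr1, 4 of 11 were tested and 0 passed. Tub had 0.04 (adjusted p = 0.979), Tulp4 0.40 (0.537), Tulp3 −0.44 (0.954) and Fscn1 −0.53 (0.890).

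Of the 17 partners of Crb1 in the Crumbs complex and its polarity partners, 10 were tested, 0 passed, and the median was 0.15. Mpp5, the scaffold that Crb1 binds, had 0.41 (adjusted p = 0.425), Epb41l5 0.55 (0.328), Crb2, the close relative of Crb1, 0.16 (0.915) and Lin7c 0.15 (0.829). Mpp3, a scaffold of the same junctions, had a value of the other sign, with 158 and 203 counts against 15 and 31 (−2.36, unadjusted p = 0.00244, adjusted p = 0.179). It was named after its values were seen. Of 18 actin genes that could serve Fscn2 at the disc base, 9 were tested and 0 passed, with a median of 0.08. Actb had 0.08 (adjusted p = 0.942) and Cfl1 −0.30 (0.667).

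**Figure D4:**
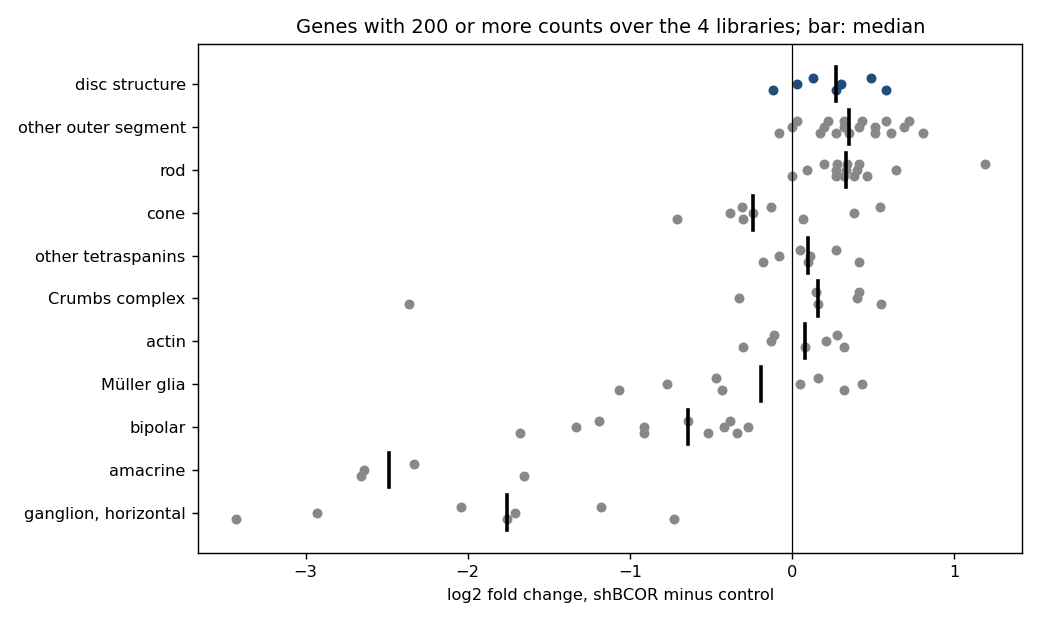
Log2 fold change of shBCOR against control (horizontal axis) for the genes of each list that had 200 or more counts over the 4 libraries, with a point for each gene and a bar for the median of those plotted. The disc structure genes run from −0.12 to 0.58 with Prcd below every rod and other outer segment gene plotted, while the amacrine, ganglion and horizontal cell genes plotted lie below 0.

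Genes with the profile most like that of Prph2 over the 4 libraries were sought among genes with at least 100 CPM, by the root mean square distance of log2 CPM after each gene was centred on its mean. Among the nearest of 1444 were Ssu72, Hsp90b1, Ddx1 and St8sia1, at distances of 0.0234, 0.0234, 0.0266 and 0.0309. Of the members Rom1 was nearest, at 0.101 and rank 156, followed by Cdhr1 at 0.118 and rank 236, and Crb1 was farthest, at 0.245 and rank 935. The 4 points of each profile share their libraries and depths, so these distances describe the profiles only.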

How the data were processed

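The authors deposited raw counts per RefSeq record, made with HTSeq per the labels. Trimmomatic, TopHat and DESeq2 and the builds mm10 and mm9 are listed, with no version or role, in the submitters' processing notes. The strand setting is not given in the sources used here. Of 45895 records 99.7% matched a symbol in the RefSeq gene table (GRCm38.p6), and those without took 0.465% of the counts. Counts were summed by symbol and tested with edgeR 4.0.16 in R 4.3.3 (TMM, filterByExpr by group, robust quasi-likelihood F test, Benjamini-Hochberg over 7773 genes, threshold 0.05). SEs are the log2 fold change over the square root of F. The common biological coefficient of variation was 0.545. The fit was tested on simulated data with less variation and larger changes than those of the members, so that test does not cover changes of their size. Alternatives were other scalings and filters, DESeq2 1.42.0, a replicate block, single records and each library left out. Named genes were the members, called genes, up to 4 of the most abundant of each list and the 5 genes nearest to Prph2, and further genes named for their role were picked after values were seen. Some genes under this rule are not reported here. The deposited table of shBCOR replicate 2 bears a different replicate number, and its title was used. Members and lists were chosen with earlier results of these data known. The 10 CUT&RUN peak lists were not used here, since no annotation of their build was given.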

Additional observations from a re-analysis of the deposited data

How the results depend on the processing

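In place of 7 genes, 30 passed with rod marker counts or with Prph2 counts as library size (0 higher in each), 205 with no filter on low counts (79 higher), 414 with DESeq2 (199 higher) and 23 with the replicate number as a block. Leaving out 1 library gave 0 to 313 genes. A lone library in a group is then assumed to vary like the other group. The block changed no call of a member. Same-numbered libraries did not deviate together (correlation −0.00898 over 7773 genes, −0.032 over the 2109 whose mean log2 CPM reached 6). The correlation rests on a single difference in each group, so whether same-numbered libraries share more than a number was not tested. In place of 0 members, 3 passed with no filter and 3 with DESeq2, and 0 to 3 with 1 library left out.

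Of 83 values of single members under the alternatives, 62 kept their direction and side of the threshold, 11 newly passed and 10 changed sign, of which none passed. With rod marker counts as library size Prph2 had −0.00, Rom1 −0.17, Tulp1 −0.28 and Fscn2 −0.03, and with Prph2 counts Rom1 had −0.17, Tulp1 −0.28 and Fscn2 −0.03. Without shBCOR replicate 1 Rom1 had −0.03 and Tulp1 −0.19, and without shBCOR replicate 2 Prcd had 0.04. With 1 library left out Rom1 ran from −0.03 to 0.27, Prcd from −0.30 to 0.04, Tulp1 from −0.19 to 0.20, Cdhr1 ran from 0.46 to 0.50, Crb1 from 0.43 to 0.71, Prph2 from 0.18 to 0.40 and Fscn2 from 0.00 to 0.60. With rod marker counts or Prph2 counts as library size the median of all genes tested also moved, by −0.29 in each. These 2 settings rescale all genes of a library together. The cause of the changes with 1 library left out was not tested.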

Other observations

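The lengths of the members' genes, from first to last annotated base in the RefSeq table (GRCm38.p6), are set beside their values. The longest spans were those of Crb1 (203 kb) and Cdhr1 (20.5 kb), which had the largest log2 fold changes, 0.58 and 0.49. Prcd, Prph2 and Tulp1 had spans of 14.5, 14.5 and 13.7 kb and log2 fold changes of −0.12, 0.30 and 0.03, and Fscn2 and Rom1 had 8.01 and 1.98 kb with 0.27 and 0.13. Over the 1146 genes whose mean log2 CPM reached 7, which share their libraries, Spearman's rho between span and log2 fold change was 0.22, and over all 7773 genes tested it was 0.05. The 93 abundant genes with spans under 5 kb had a median of −0.02, the 266 of 5 to 20 kb had 0.07, the 577 of 20 to 100 kb had 0.17 and the 210 longer ones had 0.18.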
